A study of Mus musculus with 6 samples.

Results

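Cultured epithelium of the mouse gastric corpus was compared with cultured epithelium of the forestomach. The comparison took the 2 corpus and the 2 forestomach libraries out of 6 in the series, over 15431 genes with usable symbols. The other 2 libraries, of antrum with pylorus, entered the fit and served as a check on which differences the glandular regions share. Corpus and antrum were each grown as 2D cultures by the study's own method, and forestomach epithelium was grown by a method taken from a publication of Mou and co-workers. Region and culture protocol therefore changed together, and their contributions cannot be told apart in any result below. All groups shared the WT genotype, the mark p2 and the same pair of IDs, AT75 and AT76. Libraries were made from total RNA after removal of ribosomal RNA (Ribo-Zero). The labels do not say that the libraries of a region came from separate animals or cultures, so p-values measure no more than the spread between the libraries sequenced, and that spread may be technical. In bulk RNA, fewer cells of a type and less RNA per cell cannot be told apart.

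The mouse stomach holds a pair of epithelia that meet at a sharp border. The forestomach is lined by a keratinising stratified squamous epithelium, whose basal cells carry the transcription factor p63 (Trp63) and the keratins 5 and 14 and are anchored to the basement membrane by hemidesmosomes. The corpus is lined by a single layer of columnar cells folded into glands, with mucous pit cells at the surface, proliferating cells in the isthmus, acid-secreting parietal cells and, at the base, chief cells that release pepsinogen. Columnar cells carry the simple keratins 8 and 18 and seal their upper borders with tight junctions.

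Levels are in CPM (counts scaled by library size, as the authors give them), with the value of library 1 before that of library 2 of each group. Differences are corpus minus forestomach on the log2(CPM + 1) scale, a scale that makes the changes of weakly expressed genes look smaller than they are. They were tested with limma over the 11891 genes that reached 1 CPM in at least 2 of the 6 libraries, and a gene passed at a Benjamini-Hochberg adjusted p under 0.05. A gene that reached this level in 1 of the groups alone could hardly come out otherwise than higher there, so counts of list members are descriptions and not support. A value of 0 is given as listed at 0, because Hmgcs1, a cholesterol synthesis gene that growing cells use, was listed at 0 in every library.

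The corpus libraries held 36.9 and 47.7 M reads and the forestomach libraries 37.7 and 40.4 M, as inferred from the steps between low values, so that 3 reads were worth 0.063 to 0.081 CPM. Listed genes took 33.1% to 48.3% of all CPM in the 6 libraries. Pearson's r of log2(CPM + 1), taken across genes that do not count as independent replicates, was 0.986 within corpus, 0.959 within forestomach and 0.663 to 0.704 between them. The forestomach libraries stood further apart from each other than the corpus libraries did. Between forestomach libraries 1488 genes (12.5%) lay more than 2-fold apart, against 121 genes (1.02%) between corpus libraries. The gap between the forestomach libraries moved with transcript length. Among genes at 5 CPM or more in all 6 libraries, forestomach 2 lay above forestomach 1 by a median of 0.13 on the log2 scale for the 250 genes with transcripts up to 1000 bases, and below it by a median difference of -1.01 for the 424 genes with transcripts over 8000 bases. In corpus the same medians, library 2 minus library 1, were -0.31 and 0.00.

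The 5 markers used to check the labels all went the way the labels say. Pgc, the precursor of the digestive enzyme pepsin C, had 1374 and 1516 CPM in corpus and 0.03 and 0.02 CPM in forestomach (log2 difference 10.46, SE 0.26, adjusted p = 6.86e-08). Gkn2, a gastrokine secreted by pit cells, had 1174 and 1660.5 CPM in corpus and was listed at 0 in both forestomach libraries, at least 17809-fold higher than a level of 3 reads in the shallower forestomach library. Gif, the intrinsic factor that carries vitamin B12 and that chief cells make in the mouse, had 99.3 and 201 CPM in corpus and was listed at 0 in both forestomach libraries. Krt14 had 1.30 and 1.74 CPM in corpus and 7226 and 7056 CPM in forestomach (log2 difference -11.47, SE 0.26, adjusted p = 6.43e-08). Trp63 was listed at 0 in both corpus libraries and had 180.3 and 138 CPM in forestomach, at least 1955.5-fold lower in corpus than in forestomach by the level of 3 reads in the shallower corpus library. The libraries of the groups did not overlap for any of the 5 markers, which held for 8416 (70.8%) of all tested genes.

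Over all genes tested, 5178 (43.5%) passed, 2032 (17.1%) higher and 3146 (26.5%) lower in corpus. Every count of list members below is to be read beside these shares. More than 32-fold differences on the log2(CPM + 1) scale were found for 106 genes (0.891%) higher and 64 genes (0.538%) lower in corpus. The median difference of all tested genes was -0.23. It moved to 0.03 when libraries were rescaled by median ratios and to 0.04 when they were rescaled to the same total over the listed genes. With these scalings the split became 2970 higher and 2638 lower, and 3143 higher and 2765 lower. Without corpus 2 the count of genes that passed was 3031, of which 1554 were lower in corpus. Differences below are given on the deposited scale, and of the 479 genes named or listed here that passed, none reversed its sign under either rescaling.

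**Figure D1:**
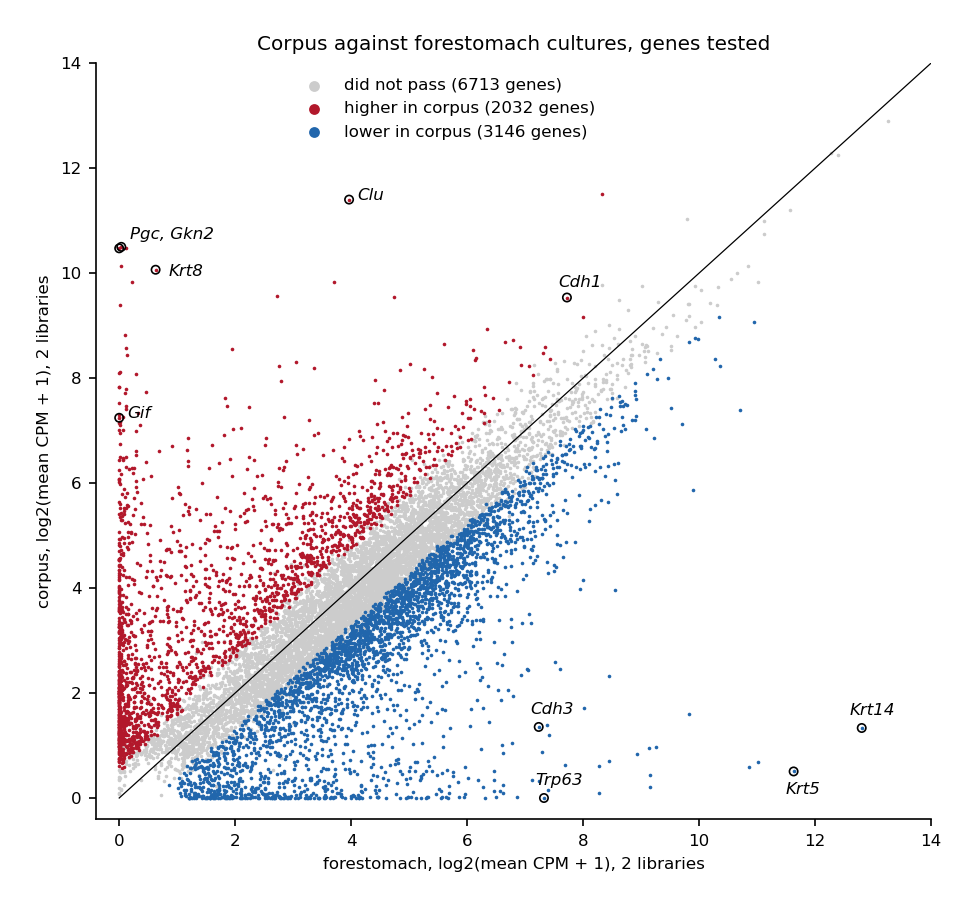
Mean level in corpus (y axis) against mean level in forestomach (x axis), both as log2(mean CPM + 1) over 2 libraries, for 11891 tested genes, with the line of equal level. Red points are 2032 genes that were higher and blue points 3146 genes that were lower in corpus, and circles mark genes named in the text, with Pgc and Gkn2 at the upper left and Krt14 and Krt5 at the lower right.

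Fibroblast transcripts, which feeder or stromal cells can bring into an epithelial culture, moved with the region as well. The summed level of the 23 listed markers was 197 and 105 CPM in corpus and 22.3 and 6.52 CPM in forestomach. Of 18 tested markers 15 were higher in corpus, 2 were lower and 1 did not pass. The lower markers were Acta2, with a log2 difference of -1.09, and S100a4, with one of -0.68. The count of lower markers was 0 without corpus 2 and with a filter of 5 CPM, and 1 without corpus 1, without forestomach 1, with either rescaling or without a trend in the fit. Col1a1 had 19.8 and 9.63 CPM in corpus and 0.05 and 0 CPM in forestomach, and Col3a1 had 22.9 and 10.8 CPM in corpus and was listed at 0 in forestomach. Vim, the mesenchymal intermediate filament, had 12.8 and 6.06 CPM in corpus and 0.13 and 0 CPM in forestomach. For these 3 markers corpus 1 lay above corpus 2, and both lay above forestomach. The part of such cells in the other differences was not tested.

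The 15 immune markers in the table summed to 11.3 and 8.41 CPM in corpus and 51.8 and 49.4 CPM in forestomach. Of 4 tested, 3 were lower in corpus and 1 did not pass, and 1 was higher without forestomach 2, with either rescaling and with a filter of 5 CPM, which left 1 lower. Cd68, a lysosomal protein that macrophages hold in quantity, had the highest level of them in forestomach, with 4.67 and 3.61 CPM in corpus and 44.8 and 39.5 CPM in forestomach (log2 difference -3.07, SE 0.26, adjusted p = 1.66e-05). Ptprc, which encodes the pan-leukocyte marker CD45, had 0.03 and 0.04 CPM in corpus and was listed at 0 in forestomach, and Adgre1 and Tyrobp of macrophages were listed at 0 in both. The 10 endothelial markers summed to 6.11 and 5.20 CPM in corpus and 7.04 and 9.79 CPM in forestomach, with 2 of 3 tested higher and 1 lower. The higher count was 1 without corpus 2 or with the 4 libraries alone and 0 with a filter of 5 CPM, and the lower count was 2 with no filter. Their defining receptor Kdr was listed at 0 in all 4 libraries. Of the muscle and nerve markers only Tubb3, a neuronal tubulin that dividing epithelial cells can also hold, was tested, with 1.95 and 1.15 CPM in corpus and 25.8 and 26.8 CPM in forestomach.

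Pepsinogen, gastrokines and mucins of the gastric glands were higher in corpus. All 5 tested chief cell genes, of 12 listed, were higher, among them Bhlha15, the factor Mist1 of secretory cells, with 8.74 and 8.83 CPM in corpus and 0.42 and 0.27 CPM in forestomach (log2 difference 2.87, SE 0.28, adjusted p = 4.21e-05). Of 15 listed pit cell products and mucins, 12 were tested, of which 11 were higher and 1, Gsdmc, was lower in corpus, with a median difference of 7.12 against -0.23 over all genes. Gkn1, another gastrokine, had 775 and 1036 CPM in corpus and 0.27 and 0.05 CPM in forestomach (log2 difference 9.60, SE 0.34, adjusted p = 1.36e-07). Gkn3 had 138 and 135 CPM in corpus and 0 and 0.02 CPM in forestomach. The secreted pit mucin Muc5ac had 488 and 417 CPM in corpus and 0.03 and 0.12 CPM in forestomach. The gland mucin Muc6 had 82.7 and 91.01 CPM in corpus and 0.03 and 0.07 CPM in forestomach. Levels in every corpus library were above those in every forestomach library for each of these genes. A lack of overlap in either direction held for 70.8% of all tested genes. Tff2, the trefoil peptide of neck cells, had 21.7 and 8.58 CPM in corpus and was listed at 0 in forestomach. Tff1, the trefoil peptide of pit cells, had 0.05 and 0.06 CPM in corpus, under the level of 3 reads, and was not tested.

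The stretches before the starts of these genes are shown for Pgc and the 3 gastrokines, whose genes lie close together on chromosome 6, beside that of Krt14, which had the largest negative difference. Each is the 250 bases before the RefSeq start in GRCm38.p6, read 5′ to 3′ on the gene's strand. Capitals mark the TATA box letters TATAAA and the GATA letters AGATAA and TGATAA, searched on both strands (TTATCA in Gkn1 is TGATAA read on the other strand), and matches that overlap were each counted.
Pgc (chr17:47726592-47726841, plus strand): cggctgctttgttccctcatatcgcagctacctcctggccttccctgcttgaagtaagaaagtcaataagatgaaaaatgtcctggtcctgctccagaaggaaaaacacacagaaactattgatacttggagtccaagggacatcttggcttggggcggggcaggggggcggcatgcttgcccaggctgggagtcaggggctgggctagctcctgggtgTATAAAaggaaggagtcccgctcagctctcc
Gkn1 (chr6:87350916-87351165, minus strand): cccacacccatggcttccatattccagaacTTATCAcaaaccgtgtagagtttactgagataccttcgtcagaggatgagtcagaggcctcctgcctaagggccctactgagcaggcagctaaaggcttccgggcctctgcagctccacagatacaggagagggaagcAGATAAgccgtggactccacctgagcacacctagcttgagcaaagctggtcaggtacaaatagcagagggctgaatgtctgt
Gkn2 (chr6:87373115-87373364, plus strand): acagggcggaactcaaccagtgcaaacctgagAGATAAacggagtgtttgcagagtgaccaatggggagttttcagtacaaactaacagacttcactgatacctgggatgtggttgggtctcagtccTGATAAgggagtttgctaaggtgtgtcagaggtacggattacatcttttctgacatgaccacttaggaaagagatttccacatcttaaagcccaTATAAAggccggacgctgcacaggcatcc
Gkn3 (chr6:87388936-87389185, minus strand): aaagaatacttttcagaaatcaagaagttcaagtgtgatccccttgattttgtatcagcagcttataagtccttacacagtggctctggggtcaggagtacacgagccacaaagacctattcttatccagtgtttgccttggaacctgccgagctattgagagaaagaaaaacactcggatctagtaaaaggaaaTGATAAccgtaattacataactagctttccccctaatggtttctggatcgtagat
Krt14 (chr11:100206031-100206280, minus strand): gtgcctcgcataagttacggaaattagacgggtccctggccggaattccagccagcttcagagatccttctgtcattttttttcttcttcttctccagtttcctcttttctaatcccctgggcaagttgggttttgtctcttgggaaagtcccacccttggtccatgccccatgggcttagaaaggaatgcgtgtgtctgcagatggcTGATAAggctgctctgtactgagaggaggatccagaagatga
Pgc holds TATAAA from 31 to 26 bases before its start and Gkn2 holds it from 29 to 24 bases before its start. Gkn1 and Gkn2 each hold AGATAA and TGATAA, and Gkn3 and Krt14 each hold TGATAA alone. Of the 30 genes with the largest differences, the RefSeq table held a start for 13 of the 15 higher and 8 of the 15 lower ones, the first listed start being used. TATAAA occurred before 4 of the 13 higher genes (Pgc, Gkn2, Apob and Anxa10) and before 1 of the 8 lower genes (Col17a1), and in 12.4% of 32851 such stretches of all genes. These stretches were counted per listed start, so a gene with several starts counts more than once, unlike the named genes. AGATAA occurred before 4 of the 13 (Gkn1, Gkn2, Cldn18 and Krt8) and 1 of the 8, and in 9.99% of all stretches. For TGATAA these counts were 2 of the 13 and 1 of the 8, with 7.94% of all stretches.

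The 15 genes with the largest positive differences among those with a mean of at least 10 CPM were Pgc, Gkn2, Apob, Cldn18, Gkn1, Krt8, Anxa10, Muc5ac, Cybrd1, Sepp1, Ugt2b34, Tspan8, Ctse, Atp1b1 and Prom1. Apob, the scaffold of lipoprotein particles best known from liver and intestine, had 1677 and 1158 CPM in corpus and 0.05 and 0.12 CPM in forestomach (log2 difference 10.33, SE 0.38, adjusted p = 1.70e-07). Cldn18, the tight junction claudin of the stomach, had 1189 and 1041 CPM in corpus and 0.03 and 0.02 CPM in forestomach (log2 difference 10.09, SE 0.26, adjusted p = 6.86e-08). Anxa10, an annexin of gastric epithelium, had 686 and 659.8 CPM in corpus and 0.03 and 0 CPM in forestomach. None of these 3 genes reached 1 CPM in a forestomach library. Sepp1, the selenium carrier selenoprotein P, had 316 and 378 CPM in corpus and 0.13 and 0.07 CPM in forestomach. Ctse, the aspartic protease cathepsin E, had 240.4 and 215 CPM in corpus and was listed at 0 in both forestomach libraries, as was Tspan8, a tetraspanin with 309 and 239 CPM in corpus. Prom1, the membrane protein CD133, had 232 and 208 CPM in corpus and 0.11 and 0.05 CPM in forestomach (log2 difference 7.67, SE 0.25, adjusted p = 1.21e-07).

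At the other end stood Krt14, Krt5, Krt17, Krt6a, Dsc3, Hspb1, Col17a1, Htra1, Krt16, Pkp1, Dsg3, Igfbp2, Wnt4, Trp63 and Dmkn. Of these 15 genes, 8 encode keratins or desmosome proteins. Hspb1, a small heat shock protein, had 0.33 and 0.38 CPM in corpus and 616 and 526 CPM in forestomach (log2 difference -8.72, SE 0.25, adjusted p = 8.48e-08). Htra1, a secreted serine protease, had 0.98 and 0.90 CPM in corpus and 689 and 435 CPM in forestomach (log2 difference -8.14, SE 0.31, adjusted p = 1.84e-07). Igfbp2, which binds insulin-like growth factors, had 0.62 and 0.63 CPM in corpus and 462 and 235 CPM in forestomach. Groups without overlap were a condition for naming these genes, and forestomach 1 was the higher of the forestomach libraries for all 3. The 30 genes were taken from 1073 higher and 2191 lower genes that met the same conditions.

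**Figure D2:**
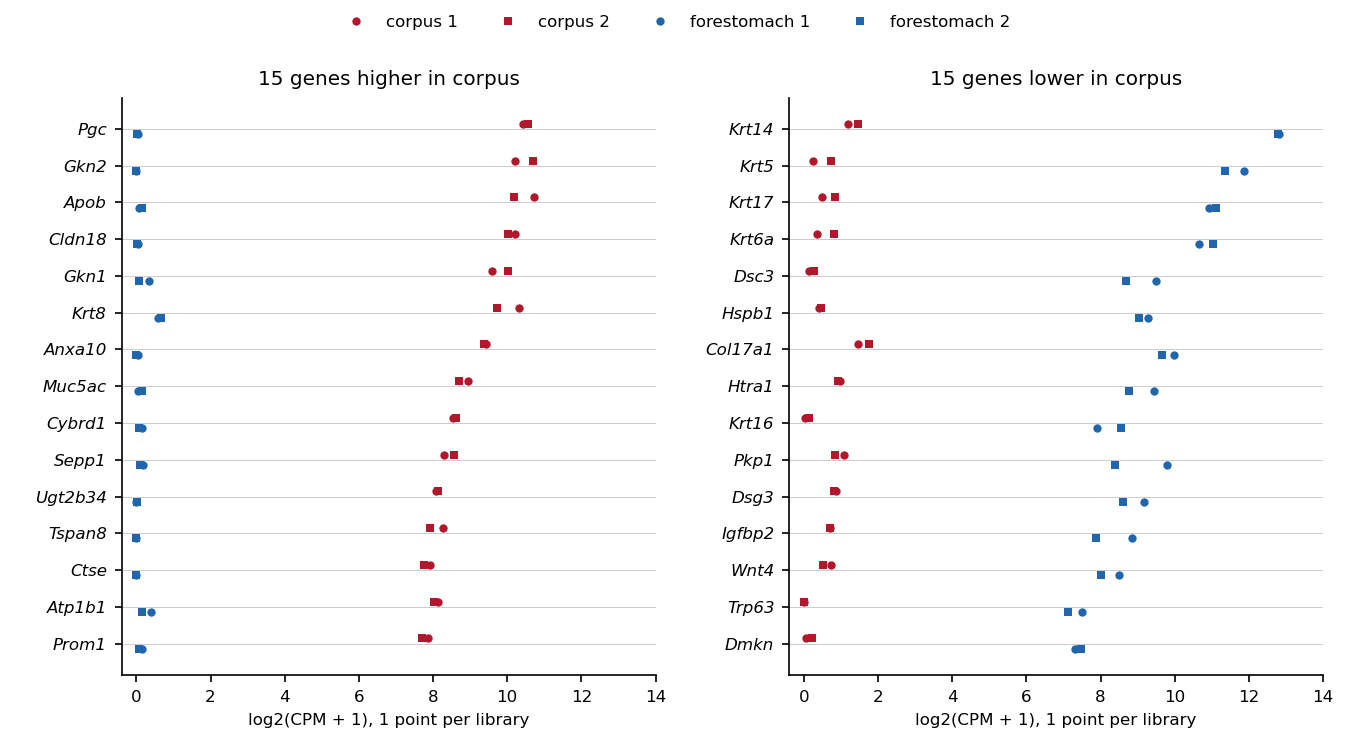
Level of the 15 genes with the largest positive (left panel) and the 15 with the largest negative (right panel) difference, as log2(CPM + 1) on the x axis, with 1 point per library. Corpus points (red) lie at 7 or above in the left panel and below 2 in the right panel, with forestomach points (blue) on the opposite side for every gene.

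Stratified keratins were lower and simple keratins were higher in corpus. The summed level of the 14 listed stratified keratins was 37.7 and 30.2 CPM in corpus and 15000 and 14612 CPM in forestomach. That of the 6 simple keratins was 3584 and 2375 CPM in corpus and 74.5 and 76.1 CPM in forestomach. Of 10 tested stratified keratins 8 were lower in corpus, 1 was higher and 1 did not pass. Krt5, the partner of Krt14 in basal cells, had 0.19 and 0.65 CPM in corpus and 3715 and 2613 CPM in forestomach (log2 difference -11.12, SE 0.32, adjusted p = 8.89e-08). Krt13, a keratin of suprabasal cells of mucosal squamous epithelia, had 0.05 and 0.25 CPM in corpus and 62.2 and 91.1 CPM in forestomach. Krt6a, Krt16 and Krt17, which squamous cells raise on wounding and in culture, had log2 differences of -10.27, -8.14 and -10.34. Krt6a and Krt6b are close copies whose reads may have been split between them. The exception was Krt80, with 33.6 and 24.7 CPM in corpus and 0.90 and 2.92 CPM in forestomach (log2 difference 3.45, SE 0.41, adjusted p = 0.000165).

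All 6 simple keratins were tested and all 6 were higher in corpus. Krt8 had 1282 and 854 CPM in corpus and 0.50 and 0.59 CPM in forestomach (log2 difference 9.41, SE 0.33, adjusted p = 1.36e-07). Its partner Krt18 had 897 and 610.3 CPM in corpus and 3.08 and 8.08 CPM in forestomach (log2 difference 6.93, SE 0.43, adjusted p = 2.65e-06). Forestomach cultures kept some of the other simple keratins. Krt19 had 889.8 and 602 CPM in corpus and 26.3 and 25.1 CPM in forestomach, and Krt7 had 399 and 216 CPM in corpus and 33.9 and 29.1 CPM in forestomach.

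Desmosomes, the spot junctions that tie keratin filaments of neighbouring cells together, had members of opposite sign within the desmogleins and the plakophilins. Of 14 tested desmosome genes 10 were lower in corpus, 3 were higher and 1 did not pass, with a median difference of -1.70. The lower count was 6 without corpus 2. The desmocollin Dsc3 had 0.11 and 0.21 CPM in corpus and 723 and 411 CPM in forestomach (log2 difference -8.88, SE 0.31, adjusted p = 1.36e-07), and the desmoglein Dsg3 had 0.81 and 0.76 CPM in corpus and 581 and 385 CPM in forestomach (log2 difference -8.05, SE 0.28, adjusted p = 1.36e-07). Dsg2, the desmoglein of simple epithelia, had 108 and 124 CPM in corpus and 24.8 and 14.1 CPM in forestomach (log2 difference 2.57, SE 0.31, adjusted p = 0.000185). The plaque protein Pkp1 had 1.11 and 0.80 CPM in corpus and 885 and 336 CPM in forestomach, while its relative Pkp2 had 31.4 and 27.2 CPM in corpus and 5.68 and 4.63 CPM in forestomach. The changes of Pkp1 and Pkp2 had opposite signs, -8.13 and 2.30. Perp, a tetraspan membrane protein that p63 and p53 control and that desmosomes need, had 67.1 and 47.95 CPM in corpus and 1014 and 888 CPM in forestomach (log2 difference -4.04, SE 0.30, adjusted p = 8.41e-06).

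Adherens junctions differed in the same manner. The placental cadherin Cdh3 had 1.52 and 1.59 CPM in corpus and 149 and 149.8 CPM in forestomach (log2 difference -5.88, SE 0.27, adjusted p = 4.57e-07), and the epithelial cadherin Cdh1 had 757 and 722 CPM in corpus and 255 and 165 CPM in forestomach (log2 difference 1.85, SE 0.32, adjusted p = 0.00165). The cell adhesion molecule nectin-1 (Pvrl1) had 4.94 and 4.99 CPM in corpus and 100.5 and 79.5 CPM in forestomach, and nectin-2 (Pvrl2) had 104 and 73.3 CPM in corpus and 16.3 and 10.3 CPM in forestomach. Their differences were -3.92 and 2.65. Epcam, an adhesion molecule of simple epithelia, had 152 and 123 CPM in corpus and 21.8 and 19.9 CPM in forestomach (log2 difference 2.66, SE 0.26, adjusted p = 4.86e-05). Of 9 tested genes of this list 4 were higher in corpus, 2 were lower and 3 did not pass. Among the last, Ctnnb1, which encodes beta-catenin, had a difference of 0.49 (95% interval -0.34 to 1.32, adjusted p = 0.31) but passed under both rescalings.

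Tight junction genes were mostly higher in corpus, 13 of 16 tested, with 1 lower and 2 that did not pass, and a median difference of 2.51. Cldn2, which forms a channel for cations and water, had 101 and 110.1 CPM in corpus and 0.03 and 0 CPM in forestomach (log2 difference 6.71, SE 0.25, adjusted p = 1.58e-07). Cldn7 had 44.3 and 29.6 CPM in corpus and 0.03 and 0.12 CPM in forestomach. Ocln, which encodes occludin, had 112 and 97.3 CPM in corpus and 1.38 and 2.68 CPM in forestomach (log2 difference 5.16, SE 0.29, adjusted p = 1.41e-06). Tjp3, a scaffold of the junction, had 64.4 and 46.7 CPM in corpus and 0.37 and 0.10 CPM in forestomach. For each of these 4 genes the lower corpus library lay above the higher forestomach library. Among all tested genes 70.8% had groups without overlap, in either direction. The member that went the other way was Cldn1, the claudin of the epidermal barrier, with 0.62 and 0.63 CPM in corpus and 28.9 and 48.9 CPM in forestomach (log2 difference -4.57, SE 0.30, adjusted p = 3.63e-06).

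Of 25 tested hemidesmosome and basement membrane genes 13 were lower in corpus, 6 were higher and 6 did not pass. The lower count was 7 without corpus 2. The hemidesmosomal collagen Col17a1 had 1.74 and 2.35 CPM in corpus and 1012 and 802 CPM in forestomach (log2 difference -8.22, SE 0.26, adjusted p = 1.21e-07). Lama3, the alpha chain of laminin-332, had 3.93 and 4.11 CPM in corpus and 409.9 and 281 CPM in forestomach (log2 difference -6.08, SE 0.27, adjusted p = 4.57e-07). The collagen chains of the basement membrane went the opposite way. Col4a1 had 139.8 and 112 CPM in corpus and 0.34 and 0.10 CPM in forestomach (log2 difference 6.70, SE 0.27, adjusted p = 2.65e-07), and Col4a2 had 80.98 and 58.2 CPM in corpus and 0.69 and 0.22 CPM in forestomach (log2 difference 5.60, SE 0.30, adjusted p = 1.07e-06). Fibroblasts also make these chains, and the fibroblast markers given above were higher in corpus, but the share of such cells was not tested. The beta1 integrin Itgb1, shared by many adhesion receptors, did not pass, with 232 and 222 CPM in corpus and 235 and 230.0 CPM in forestomach and a difference of -0.03 (95% interval -0.64 to 0.58, adjusted p = 0.937).

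Listed genes of the cornified envelope, the cross-linked shell of dying squamous cells, and of the barrier were mostly lower in corpus. Of 32 listed genes 19 were tested, of which 13 were lower in corpus, 4 were higher and 2 did not pass. The count of higher genes was 1 without corpus 1 and 2 without corpus 2, and that of lower genes was 7 with a filter of 5 CPM. Dmkn, a secreted protein of the suprabasal epidermis, had 0.05 and 0.17 CPM in corpus and 158 and 176 CPM in forestomach. Sbsn, another of this kind, had 0.24 and 0.31 CPM in corpus and 71.1 and 71.7 CPM in forestomach. Tgm1, the transglutaminase that cross-links the envelope, had 0.27 and 0.29 CPM in corpus and 32.3 and 27.4 CPM in forestomach (log2 difference -4.58, SE 0.25, adjusted p = 1.16e-06). Sprr2a1, a precursor of the envelope with close copies, went the other way, with 5.78 and 5.12 CPM in corpus and 0.64 and 0.40 CPM in forestomach (log2 difference 2.09, SE 0.25, adjusted p = 0.00015). Ivl, which encodes involucrin, was also higher, at 1.295, but did not pass with no filter or with the block by column number. Sprr1a and Scel did not pass, at 0.66 and 0.15, while Sprr1b and Sprr3 were lower, at -2.13 and -2.705.

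**Figure D3:**
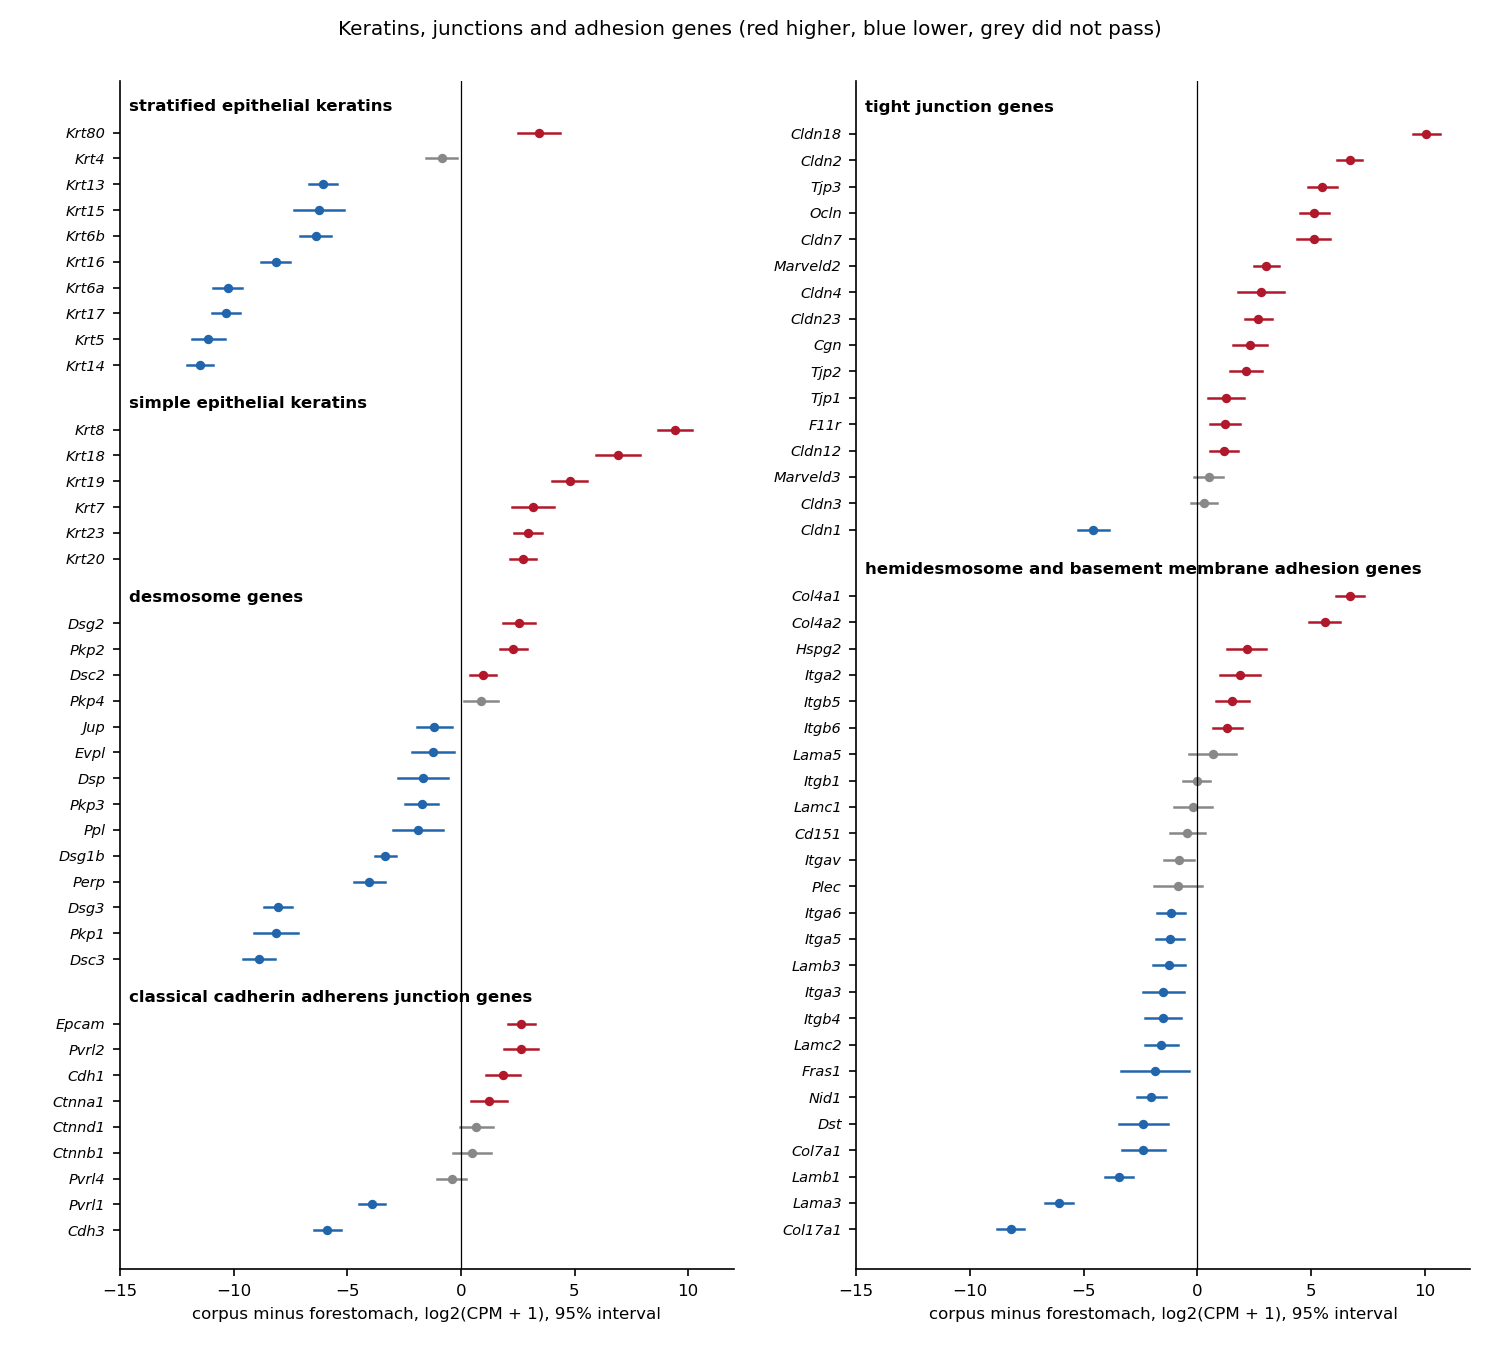
Corpus minus forestomach difference (x axis, log2(CPM + 1), with its 95% interval from the limma fit) for every tested gene of 6 lists of keratins, junctions and adhesion genes. Red marks genes that were higher, blue genes that were lower and grey genes that did not pass. The keratin, desmosome, cadherin and claudin families each have members on both sides of 0, as with Krt14 and Krt8, Dsg3 and Dsg2, Cdh3 and Cdh1, and Cldn1 and Cldn18.

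Transcription factors of the foregut endoderm were higher in corpus. Of 28 listed glandular factors 22 were tested, and 18 were higher and 4 did not pass, with a median difference of 2.56. Without forestomach 2, 1 of the 22 was lower in corpus. Hnf4a, a nuclear receptor of endodermal epithelia, had 83.3 and 66.6 CPM in corpus and was listed at 0 in forestomach (log2 difference 6.24, SE 0.29, adjusted p = 5.14e-07). Gata4, a zinc finger factor of the GATA family, had 83.9 and 68.4 CPM in corpus and 0.08 and 0.17 CPM in forestomach, and its relative Gata6 had 44.4 and 36.8 CPM in corpus and 0.08 and 0 CPM in forestomach. Foxa2, a forkhead factor that opens chromatin in endoderm, had 29.5 and 19.03 CPM in corpus and 0 and 0.10 CPM in forestomach. Every forestomach library lay below every corpus library for these 4 factors. The groups did not overlap, in either direction, for 70.8% of all tested genes.

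Of 25 tested squamous factors 16 were lower in corpus, 3 were higher and 6 did not pass. The higher factors were Grhl3, Meis2 and Ovol1, with log2 differences of 1.04, 0.96 and 0.93. The count of higher factors was 0 without corpus 1 and 1 without corpus 2 or without forestomach 2. Irx1, a homeobox factor of the Iroquois family, was listed at 0 in corpus and had 49.8 and 21.7 CPM in forestomach. Its relative Irx2 had 0.54 and 0.50 CPM in corpus and 56.1 and 22.96 CPM in forestomach. Snai2, a repressor found in basal keratinocytes, had 0.08 and 0.02 CPM in corpus and 27.1 and 25.4 CPM in forestomach (log2 difference -4.70, SE 0.21, adjusted p = 4.77e-07). Bnc1, which encodes basonuclin, had 0.03 and 0 CPM in corpus and 24.2 and 18.2 CPM in forestomach (log2 difference -4.44, SE 0.23, adjusted p = 7.72e-07). Sox2, which in the embryo marks the foregut that forms squamous and gastric epithelium, was measured in both cultures, with 7.51 and 4.95 CPM in corpus and 39.3 and 17.04 CPM in forestomach (log2 difference -1.92, SE 0.39, adjusted p = 0.00346). Runx1 did not pass, with 22.4 and 23.3 CPM in corpus and 23.2 and 23.4 CPM in forestomach and a difference of -0.03 (95% interval -0.59 to 0.54, adjusted p = 0.941).

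Signalling genes were ordered by ligand, receptor and target. Wnt ligands bind Frizzled receptors with Lrp co-receptors and act through beta-catenin or without it. All 6 Wnt ligands that were tested, of 15 listed, were lower in corpus, while 1 more ligand came out higher with no filter or with equal totals over listed genes. Wnt4 had 0.65 and 0.42 CPM in corpus and 359 and 258 CPM in forestomach (log2 difference -7.64, SE 0.27, adjusted p = 1.36e-07). Wnt10a had 0.16 and 0.02 CPM in corpus and 82.5 and 91.9 CPM in forestomach (log2 difference -6.34, SE 0.24, adjusted p = 1.81e-07). Wnt7b had 0.76 and 0.25 CPM in corpus and 26.5 and 17.5 CPM in forestomach. No corpus library reached the level of either forestomach library for these 3 ligands, where 70.8% of all tested genes had no overlap in either direction.

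Wnt receptors and modulators split, with 8 of 20 tested higher in corpus, 7 lower and 5 that did not pass. Among all tested genes 17.1% were higher and 26.5% lower. Fzd10 was listed at 0 in corpus and had 16.4 and 16.8 CPM in forestomach, and Fzd6 had 14.7 and 14.2 CPM in corpus and 82.7 and 59.95 CPM in forestomach. Fzd4 had 26.8 and 24.7 CPM in corpus and 0.13 and 0.10 CPM in forestomach, and Fzd5 had 55.9 and 42.5 CPM in corpus and 16.1 and 11.5 CPM in forestomach. The differences of these 4 Frizzled receptors were -4.14, -2.21, 4.58 and 1.76. Lgr5, a receptor for R-spondins and itself a Wnt target, had 14.1 and 15.8 CPM in corpus and was listed at 0 in forestomach (log2 difference 3.99, SE 0.24, adjusted p = 2.29e-06). Lgr4, another such receptor, had 71.4 and 78.2 CPM in corpus and 27.6 and 13.2 CPM in forestomach. Of 12 tested Wnt targets 8 were higher in corpus, 1, Cd44, was lower and 3 did not pass, and the lower count was 2 without forestomach 2 and 3 with the block by column number. With a filter of 5 CPM 4 were higher. Axin2, a feedback target, had 8.03 and 7.32 CPM in corpus and 3.34 and 1.02 CPM in forestomach (log2 difference 1.55, SE 0.35, adjusted p = 0.00661), a difference that was 0.998 without forestomach 2. The Wnt target Sp5 had 3.96 and 2.62 CPM in corpus and was listed at 0 in forestomach.

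Ligands of the EGF family, which bind the ErbB receptors, divided between the cultures, 2 of 8 tested being higher in corpus, 4 lower and 2 not passing. The neuregulin Nrg1 had 0.24 and 0.02 CPM in corpus and 41.5 and 48.1 CPM in forestomach (log2 difference -5.35, SE 0.24, adjusted p = 4.57e-07). Epgn, which encodes epigen, had 0.16 and 0.17 CPM in corpus and 12.04 and 88.4 CPM in forestomach, where library 2 lay far above library 1. Areg, which encodes amphiregulin, had 49.4 and 35.3 CPM in corpus and 0.82 and 6.04 CPM in forestomach (log2 difference 3.58, SE 0.55, adjusted p = 0.000759). Btc, which encodes betacellulin, had 14 and 12.8 CPM in corpus and 0.13 and 0.72 CPM in forestomach (log2 difference 3.37, SE 0.28, adjusted p = 1.48e-05). Among receptors and feedback genes of the pathway 8 of 16 tested were higher in corpus, 1 was lower and 7 did not pass. The count of higher genes was 5 without corpus 1, and that of lower genes was 0 without corpus 2. The receptor Erbb3 had 109 and 94.5 CPM in corpus and 37.5 and 12.6 CPM in forestomach (log2 difference 2.16, SE 0.43, adjusted p = 0.00345), a difference that was 1.42 without forestomach 2. Dusp4, a phosphatase that ERK signalling induces, had 37.1 and 34.8 CPM in corpus and 0.32 and 0.57 CPM in forestomach (log2 difference 4.68, SE 0.31, adjusted p = 4.02e-06). Dusp6, another phosphatase of this kind, did not pass, with 24.4 and 15.3 CPM in corpus and 3.69 and 36.3 CPM in forestomach. The forestomach values lay on both sides of corpus, and the gene passed without forestomach 2.

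Notch genes, whose ligands and receptors sit on neighbouring cells, were mostly lower in corpus, 9 of 12 tested, with 2 higher and 1 that did not pass. The count of higher genes was 1 without corpus 1, with the 4 libraries alone or with median ratios, and 0 with a filter of 5 CPM. The ligand Jag2 had 6.65 and 3.32 CPM in corpus and 221 and 145 CPM in forestomach (log2 difference -4.97, SE 0.35, adjusted p = 5.46e-06), and the ligand Dll1 had 0.38 and 0.36 CPM in corpus and 39.8 and 33.3 CPM in forestomach (log2 difference -4.77, SE 0.23, adjusted p = 6.12e-07). The receptor Notch1 had 19.5 and 13.9 CPM in corpus and 361 and 147 CPM in forestomach (log2 difference -3.73, SE 0.41, adjusted p = 9.40e-05). Nrarp, a Notch target, had 3.42 and 1.09 CPM in corpus and 25.8 and 21.4 CPM in forestomach. Notch2 did not pass, with 70.2 and 54.1 CPM in corpus and 104 and 69.3 CPM in forestomach. The groups did not overlap for Jag2, Dll1, Notch1 or Nrarp, nor for 70.8% of all tested genes. Dll4 was the ligand of opposite sign, with 2.17 and 2.46 CPM in corpus and 0.03 and 0 CPM in forestomach (log2 difference 1.71, SE 0.21, adjusted p = 0.00017).

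The BMP and TGF-beta list went both ways, 9 of 27 tested genes being higher in corpus, 8 lower and 10 not passing. The shares over all tested genes were 17.1% higher and 26.5% lower. The ligand Bmp7 had 0.73 and 0.50 CPM in corpus and 35.5 and 32.5 CPM in forestomach (log2 difference -4.44, SE 0.28, adjusted p = 2.97e-06), and Bmp2 had 18.4 and 17 CPM in corpus and 1.38 and 0.17 CPM in forestomach (log2 difference 3.48, SE 0.35, adjusted p = 5.10e-05). Id1, a direct BMP target, had 20.6 and 14.2 CPM in corpus and 0.05 and 0.72 CPM in forestomach (log2 difference 3.75, SE 0.32, adjusted p = 1.82e-05). Of 9 tested Hedgehog genes 5 were lower in corpus, 2 were higher and 2 did not pass, and the higher count was 1 without corpus 2. The ligand Ihh had 9.77 and 7.01 CPM in corpus and 0 and 0.05 CPM in forestomach (log2 difference 3.18, SE 0.24, adjusted p = 9.52e-06). Smo, the signal transducer, had 12.6 and 8.83 CPM in corpus and 58.2 and 67.9 CPM in forestomach, and Gli3, a transcription factor of the pathway, had 0.22 and 0.06 CPM in corpus and 15.7 and 9.14 CPM in forestomach. Ptch1, receptor and target of the pathway, had 10.6 and 11.2 CPM in corpus and 10.7 and 5.25 CPM in forestomach. It did not pass, with a difference of 0.48 (95% interval -0.25 to 1.22, adjusted p = 0.262), but did under both rescalings and without forestomach 1. Of 6 tested FGF genes 2 were lower, 1 was higher and 3 did not pass, and the higher count ran from 0 with a filter of 5 CPM to 3 with equal totals over listed genes, being 2 without forestomach 1. Fgfbp1, which releases FGFs from the matrix, had 51.3 and 38.1 CPM in corpus and 290.2 and 259.9 CPM in forestomach (log2 difference -2.61, SE 0.28, adjusted p = 7.54e-05).

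Of 13 tested acid secretion genes all 13 were higher in corpus, while the acid pump itself was under 1 CPM. The count was 12 with the 4 libraries alone or with the block by column number, where Kcnj15 did not pass. Kcnj15, Slc4a2 and Ezr had small differences of 1.02, 1.19 and 1.32. Atp4b, the beta subunit of the pump, had 0 and 0.06 CPM in corpus and was listed at 0 in forestomach, and Atp4a, the catalytic subunit, had 0.60 and 0.84 CPM in corpus and 0 and 0.20 CPM in forestomach, so neither was tested. Car2, the carbonic anhydrase that supplies protons, had 420.4 and 332 CPM in corpus and 1.86 and 3.86 CPM in forestomach (log2 difference 6.65, SE 0.32, adjusted p = 5.91e-07). The sodium-proton exchanger Slc9a4 had 185 and 182 CPM in corpus and was listed at 0 in forestomach, and its relative Slc9a2 had 67.7 and 56.7 CPM in corpus and 0.03 and 0 CPM in forestomach. The potassium channel Kcnq1 had 59.2 and 45.5 CPM in corpus and 0.05 and 0.10 CPM in forestomach (log2 difference 5.62, SE 0.26, adjusted p = 5.20e-07). These genes serve other secretory epithelia too.

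Ion and water channels of secretory epithelia were mostly higher in corpus, 13 of 19 tested, with 2 lower and 4 that did not pass. Slc4a4, a sodium-bicarbonate cotransporter, had 214 and 206 CPM in corpus and 0.13 and 0.02 CPM in forestomach (log2 difference 7.62, SE 0.25, adjusted p = 1.21e-07). Cftr, the chloride channel, had 22.8 and 27.1 CPM in corpus and 1.72 and 0.45 CPM in forestomach (log2 difference 3.70, SE 0.33, adjusted p = 2.39e-05). The beta subunits of the sodium-potassium pump had opposite signs. Atp1b1 had 280.0 and 258 CPM in corpus and 0.32 and 0.12 CPM in forestomach, and Atp1b3 had 28.7 and 23.1 CPM in corpus and 78.4 and 64.4 CPM in forestomach, with differences of 7.79 and -1.43. Aquaporins split too, with Aqp5 at 110.2 and 60.6 CPM in corpus and listed at 0 in forestomach, and Aqp3 at 1.44 and 1.62 CPM in corpus and 27.4 and 21.7 CPM in forestomach.

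Defence genes differed in kind. Of 11 tested secreted antimicrobial and mucosal genes 7 were higher in corpus, 2 were lower and 2 did not pass. Defb1, a beta-defensin, was listed at 0 in corpus and had 56.8 and 43.05 CPM in forestomach (log2 difference -5.66, SE 0.23, adjusted p = 2.87e-07). Slpi, a secreted inhibitor of leukocyte proteases, had 0 and 0.02 CPM in corpus and 14.8 and 27.4 CPM in forestomach. Pigr, the receptor that carries IgA across columnar cells, had 39.9 and 46.7 CPM in corpus and 0.13 and 0 CPM in forestomach (log2 difference 5.38, SE 0.26, adjusted p = 6.12e-07). Dmbt1, a secreted scavenger receptor of mucosal surfaces, had 111 and 171 CPM in corpus and was listed at 0 in forestomach. Among chemokines and cytokines 7 of 13 tested were higher in corpus, 3 were lower and 3 did not pass, the lower count being 6 with no filter and 1 with one of 5 CPM. Il33, an alarmin of the interleukin-1 family, had 17.9 and 14.6 CPM in corpus and 0.58 and 1.31 CPM in forestomach (log2 difference 3.16, SE 0.29, adjusted p = 2.82e-05). Cxcl1, which draws neutrophils, had 0.84 and 0.55 CPM in corpus and 6.29 and 33.1 CPM in forestomach (log2 difference -3.22, SE 0.58, adjusted p = 0.00181), a difference that was -2.11 without forestomach 2.

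Serpins and proteases were divided, with 7 of 23 tested higher in corpus, 11 lower and 5 that did not pass. Over all tested genes the shares were 17.1% higher and 26.5% lower. Serpinb5, known as maspin, had 14.3 and 15.2 CPM in corpus and 235 and 255 CPM in forestomach (log2 difference -3.96, SE 0.26, adjusted p = 3.64e-06). Klk10, a kallikrein of squamous epithelia, had 0.11 and 0.02 CPM in corpus and 32.7 and 67.7 CPM in forestomach (log2 difference -5.50, SE 0.33, adjusted p = 2.14e-06). The membrane proteases Tmprss2 and Tmprss11e had opposite differences of 6.06 and -4.03. Tmprss11e had 0.30 and 0.29 CPM in corpus and 12.5 and 32.2 CPM in forestomach. Tmprss2 had 83.7 and 71.3 CPM in corpus and 0.19 and 0.15 CPM in forestomach. The plasminogen activators also had opposite signs. Plat had 40.5 and 25.2 CPM in corpus and 0.45 and 3.77 CPM in forestomach, and Plau had 2.85 and 1.45 CPM in corpus and 24.1 and 17.9 CPM in forestomach, with differences of 3.65 and -2.83.

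Enzymes that metabolise drugs, steroids and retinoids were mostly higher in corpus, 20 of 28 tested, with 2 lower, Nqo1 and Gsta3, and 6 that did not pass. Ugt2b34, a glucuronosyltransferase, had 269.7 and 283 CPM in corpus and 0 and 0.02 CPM in forestomach (log2 difference 8.10, SE 0.27, adjusted p = 1.21e-07). The cytochrome P450 gene Cyp2s1 had 155 and 138 CPM in corpus and 10 and 7.36 CPM in forestomach (log2 difference 3.94, SE 0.28, adjusted p = 5.86e-06). Nqo1, a quinone reductase, had 9.01 and 10.3 CPM in corpus and 81.1 and 71.1 CPM in forestomach (log2 difference -2.86, SE 0.26, adjusted p = 2.78e-05). Retinoic acid genes split, 4 of 13 tested being higher, 5 lower and 4 not passing, beside 17.1% higher and 26.5% lower over all tested genes. Rdh10, which makes retinal from retinol, had 154 and 108 CPM in corpus and 3.42 and 3.15 CPM in forestomach (log2 difference 4.92, SE 0.29, adjusted p = 2.02e-06). Crabp2, which carries retinoic acid to its receptors, was listed at 0 in corpus and had 4.99 and 2.58 CPM in forestomach. Cyp26b1, which degrades retinoic acid, had 0.08 and 0.06 CPM in corpus and 6.53 and 3.84 CPM in forestomach.

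Lipid transport genes other than Apob went both ways, where 17.1% of all tested genes were higher and 26.5% lower in corpus. Of 11 tested lipid transport genes 4 were higher in corpus, 1 was lower and 6 did not pass, and the lower count was 2 without forestomach 2. Mttp, which loads lipid onto Apob, did not pass, with 3.91 and 4.05 CPM in corpus and 10.6 and 4.14 CPM in forestomach, but did without forestomach 2. Apoa1, a lipoprotein of HDL, had 6.02 and 8.94 CPM in corpus and 0 and 0.10 CPM in forestomach (log2 difference 2.99, SE 0.24, adjusted p = 1.11e-05). Fabp5, the fatty acid binding protein of squamous cells, had 50.7 and 49.98 CPM in corpus and 319.8 and 312 CPM in forestomach (log2 difference -2.63, SE 0.25, adjusted p = 4.28e-05). Of 13 tested iron genes 4 were higher in corpus, 4 were lower and 5 did not pass, the lower count being 2 without either corpus library. Cybrd1, which reduces iron at the cell surface, had 369 and 389.7 CPM in corpus and 0.11 and 0.05 CPM in forestomach (log2 difference 8.46, SE 0.25, adjusted p = 9.44e-08). Slc40a1, the iron exporter ferroportin, had 6.38 and 7.51 CPM in corpus and 0.11 and 0.15 CPM in forestomach.

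Cholesterol synthesis genes were lower in corpus, 17 of 19 tested, with 2 that did not pass and a median difference of -1.63 against -0.23 over all genes. All 19 reached 1 CPM in the 4 libraries, and the count was 10 without corpus 2. Idi1, the isopentenyl diphosphate isomerase, had 10.3 and 8.60 CPM in corpus and 72.3 and 68.6 CPM in forestomach (log2 difference -2.78, SE 0.25, adjusted p = 2.66e-05). Lss, which closes the sterol rings, had 96.2 and 66.4 CPM in corpus and 442 and 297 CPM in forestomach (log2 difference -2.17, SE 0.33, adjusted p = 0.00068). Of 19 tested glycolysis genes 9 were lower in corpus, or 5 without corpus 2, and 10 did not pass. With either rescaling 2 glycolysis genes were higher in corpus, with the block by column number 1 was, and without forestomach 1 there were 3. The glucose transporter Slc2a1 had 157 and 102 CPM in corpus and 618 and 458 CPM in forestomach (log2 difference -2.07, SE 0.42, adjusted p = 0.00371). Slc16a3, which exports lactate, had 26.8 and 20.4 CPM in corpus and 81.1 and 213 CPM in forestomach (log2 difference -2.44, SE 0.43, adjusted p = 0.00175). Gapdh did not pass, with 375 and 319.8 CPM in corpus and 468 and 447 CPM in forestomach.

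Most listed genes of DNA replication and mitosis were lower in corpus cultures. Of 30 tested replication genes 27 were lower and 3 did not pass, with a median difference of -1.44, and of 28 tested mitosis genes 23 were lower and 5 did not pass, with a median of -1.88. Nearly all of these genes reached 1 CPM in the 4 libraries, 29 of the 30 and all 28. Mki67, a marker of proliferating cells, did not pass, with a difference of 0.06 that ran from -0.78 to 0.90 over the alternative fits. Top2a, Cdc6 and Gins2 did not pass either, at -0.89, -0.33 and -0.34. Rrm2, a subunit of ribonucleotide reductase, which makes the building blocks of DNA, had 20.1 and 21.3 CPM in corpus and 170.2 and 187 CPM in forestomach (log2 difference -3.05, SE 0.27, adjusted p = 2.11e-05). The mitotic cyclin Ccnb1 had 21.7 and 18.7 CPM in corpus and 110.2 and 89.3 CPM in forestomach (log2 difference -2.25, SE 0.27, adjusted p = 0.000165), and the kinase Aurka had 11.8 and 11.4 CPM in corpus and 58.6 and 52.6 CPM in forestomach (log2 difference -2.16, SE 0.25, adjusted p = 0.000137). The forestomach libraries were close for these genes and far apart for the long transcript of Cenpf. That gene, of the kinetochore, had 27.2 and 29.6 CPM in corpus and 86.7 and 22.6 CPM in forestomach. It did not pass, but did without forestomach 2.

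Among cell cycle inhibitors and p53 targets 11 of 20 tested were lower in corpus and 9 did not pass. Without corpus 2 the lower count was 7, and with the block by column number or without forestomach 1 there was 1 higher gene. Phlda3, a p53 target that restrains Akt, had 10.99 and 7.05 CPM in corpus and 146 and 128 CPM in forestomach (log2 difference -3.80, SE 0.35, adjusted p = 2.88e-05). Ccng1, a p53 target of the cyclin family, had 191 and 150.2 CPM in corpus and 763 and 697 CPM in forestomach (log2 difference -2.10, SE 0.29, adjusted p = 0.000426). Trp73, the p53 relative, was listed at 0 in corpus and had 2.36 and 2.13 CPM in forestomach. Cdkn2b, an inhibitor that TGF-beta induces, did not pass, with 14.1 and 6.99 CPM in corpus and 12.6 and 8.50 CPM in forestomach. Interferon response genes stood at low levels, with 11 of 16 tested higher in corpus and 5 that did not pass. That count was 5 without corpus 1, 6 without corpus 2, 6 with the 4 corpus and forestomach libraries alone and 5 with a filter of 5 CPM, and 1 gene was lower without forestomach 2. Ifih1, a sensor of viral RNA, had 7.43 and 9.99 CPM in corpus and 1.22 and 0.72 CPM in forestomach (log2 difference 2.30, SE 0.29, adjusted p = 0.00024).

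Markers that have been used for stem and progenitor cells of the gastric isthmus and gland gave no common direction. Of 17 such genes, all tested, 6 were higher in corpus, 4 were lower and 7 did not pass, with a median difference of -0.03. Shares of all tested genes were 17.1% higher and 26.5% lower. Ly6a, known as Sca-1, had 149 and 80.5 CPM in corpus and 573 and 616 CPM in forestomach (log2 difference -2.43, SE 0.36, adjusted p = 0.000633). Lrig1, a restraint on ErbB signalling, did not pass, with 41.3 and 36.5 CPM in corpus and 42.7 and 50.01 CPM in forestomach and a difference of -0.24 (95% interval -0.82 to 0.33, adjusted p = 0.468). Bmi1, a Polycomb gene, did not pass either, with 28.2 and 25.6 CPM in corpus and 27.7 and 22.7 CPM in forestomach and a difference of 0.09 (95% interval -0.49 to 0.67, adjusted p = 0.797). Of 17 genes linked to regeneration 9 were higher in corpus, 3 were lower and 5 did not pass. Clu, which encodes the secreted chaperone clusterin, had 3129.8 and 2267 CPM in corpus and 18.2 and 10.9 CPM in forestomach (log2 difference 7.46, SE 0.37, adjusted p = 7.26e-07). Msln, which encodes mesothelin, had 1111 and 715 CPM in corpus and 16.5 and 7.46 CPM in forestomach (log2 difference 6.20, SE 0.45, adjusted p = 6.71e-06). Anxa1, an annexin with anti-inflammatory action, had 171 and 162 CPM in corpus and 1525 and 1802 CPM in forestomach (log2 difference -3.31, SE 0.30, adjusted p = 2.99e-05). Ly6a stands in both lists.

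Of markers of other epithelial lineages, 7 of 15 intestinal, 12 of 14 enteroendocrine and 7 of 11 tuft cell genes in the table were too low to be tested. The intestinal genes summed to 362 and 304 CPM in corpus and 45.7 and 65.3 CPM in forestomach. Of 8 tested intestinal genes 5 were higher in corpus, 2 were lower and 1 did not pass, while Cdx2, the intestinal master factor, was listed at 0 in all 4 libraries. Vil1, the microvillus protein villin, had 79.1 and 53.05 CPM in corpus and was listed at 0 in forestomach (log2 difference 6.04, SE 0.28, adjusted p = 5.21e-07). Of 14 enteroendocrine genes only Insm1 and Isl1, transcription factors, were tested, and both were higher in corpus. The hormones Gast and Sst were listed at 0 in all 4 libraries. Of 4 tested tuft cell genes 2 were higher, 1 was lower and 1 did not pass. The lower gene was Alox5, at -2.21, and Dclk1, at -0.21, did not pass. Avil, which encodes the actin-binding advillin, had 190.2 and 149 CPM in corpus and 0.11 and 0.05 CPM in forestomach (log2 difference 7.30, SE 0.28, adjusted p = 2.10e-07), whereas Pou2f3, the tuft cell factor, had 0.14 and 0.02 CPM in corpus and was listed at 0 in forestomach.

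**Figure D4:**
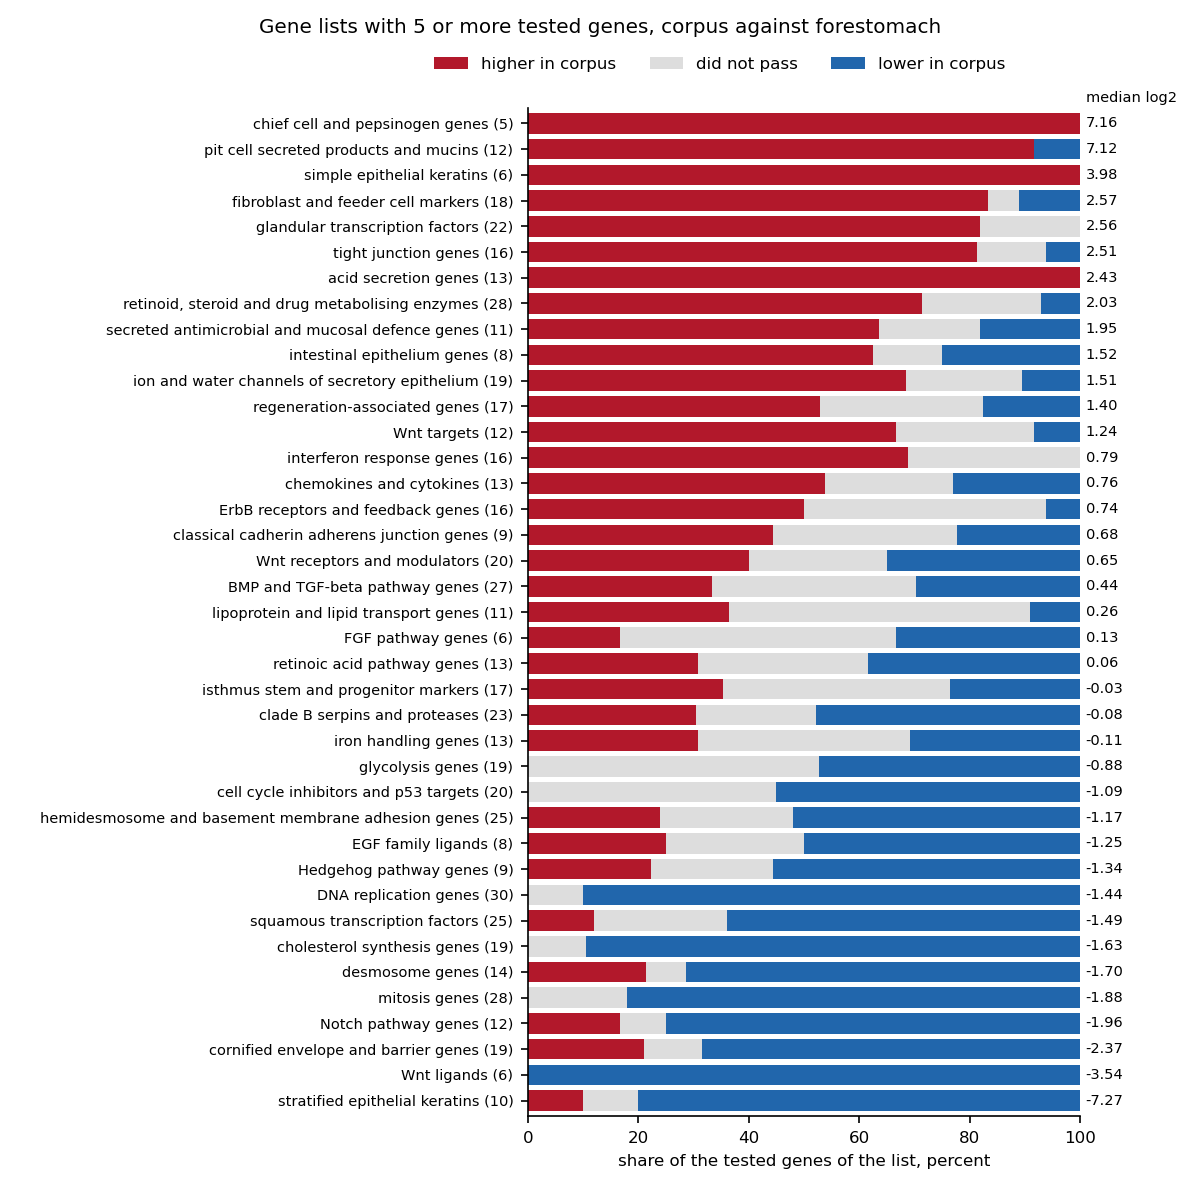
Share of tested genes (x axis, percent) that were higher in corpus (red), did not pass (grey) or were lower in corpus (blue) for each list with 5 or more tested genes, the number tested in brackets and the median log2 difference at the right. Over all 11891 genes these shares were 17.1% higher and 26.5% lower, with a median of -0.23.

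Few genes had an interval narrow enough to bound the difference near 0. The 95% interval lay within 0.5 of 0 on the log2 scale for only 3 genes, all at low levels in these cultures. At such levels the log2(CPM + 1) scale shrinks differences, so these intervals do not show equal expression. For other genes too, a difference that did not pass is not shown to be absent. Mex3a, an RNA-binding protein, had 1.14 and 1.32 CPM in corpus and 1.27 and 1.14 CPM in forestomach, with a difference of 0.02 (95% interval -0.46 to 0.49, adjusted p = 0.96). The other 2 genes were Srcrb4d, at -0.04, and Daam2, at -0.03. Daam2 had 0.19 and 0.36 CPM in corpus and 0.32 and 0.27 CPM in forestomach. It reached 1 CPM only in antrum, with 1.21 and 1.02 CPM.

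Antrum cultures were grown by the same protocol as corpus cultures, and their comparison with corpus tests where the difference from forestomach is not shared by the glandular regions. Of 11891 genes 90 (0.757%) differed between antrum and corpus, 66 (0.555%) higher and 24 (0.202%) lower in antrum, and both comparisons use the same corpus libraries. The count fell to between 19 and 33 when any library was left out, and was 33 with the block by column number. Among genes higher in corpus than in forestomach, Gif had 11.1 and 23.9 CPM in antrum and 99.3 and 201 CPM in corpus, an antrum minus corpus difference of -3.04 (SE 0.42, adjusted p = 0.015). Pgc had 307 and 346 CPM in antrum and 1374 and 1516 CPM in corpus, a difference of -2.14 (SE 0.26, adjusted p = 0.00685). The gastrokines split, since Gkn2 had 375 and 229 CPM in antrum and 1174 and 1660.5 CPM in corpus with a difference of -2.25 (SE 0.32, adjusted p = 0.0182), whereas Gkn3 had 391 and 442 CPM in antrum and 138 and 135 CPM in corpus with a difference of 1.60 (SE 0.25, adjusted p = 0.0256). Anpep, the peptidase aminopeptidase N of brush borders, had 4.62 and 7.40 CPM in antrum, 44.5 and 51.7 CPM in corpus and 10.1 and 6.44 CPM in forestomach, and its antrum minus corpus difference was -2.83 (SE 0.31, adjusted p = 0.00466). Gpa33, a surface glycoprotein of intestinal epithelium, had 97.3 and 80 CPM in antrum, 24.2 and 19.5 CPM in corpus and 1.72 and 1.51 CPM in forestomach, with a difference of 1.97 (SE 0.26, adjusted p = 0.0123).

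Among genes lower in corpus than in forestomach, the growth factor receptor Fgfr2 had 11.7 and 13.6 CPM in antrum, 2.88 and 2.39 CPM in corpus and 85.8 and 55.3 CPM in forestomach. Nrp1, a co-receptor for semaphorins and VEGF, had 11.8 and 15.1 CPM in antrum, 3.88 and 3.06 CPM in corpus and 27.1 and 31.1 CPM in forestomach. For both genes antrum lay between corpus and forestomach, with antrum minus corpus differences of 1.91 (SE 0.29, adjusted p = 0.0238) and 1.69 (SE 0.26, adjusted p = 0.027). Ecm1, a secreted matrix protein, had 15.6 and 10.1 CPM in antrum, 2.39 and 2.52 CPM in corpus and 9.26 and 16.1 CPM in forestomach, so that antrum and forestomach libraries overlapped. Its antrum minus corpus difference was 1.97 (SE 0.32, adjusted p = 0.034). Of the 14 genes named by this rule, none passed without corpus 2 or without antrum 1. Over 14 alternative fits the adjusted p ran from 0.00242 to 0.0593 for Anpep, from 0.00808 to 0.124 for Gif and from 0.00447 to 0.115 for Pgc. For Ecm1 it ran from 0.0239 to 0.271.

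**Figure D5:**
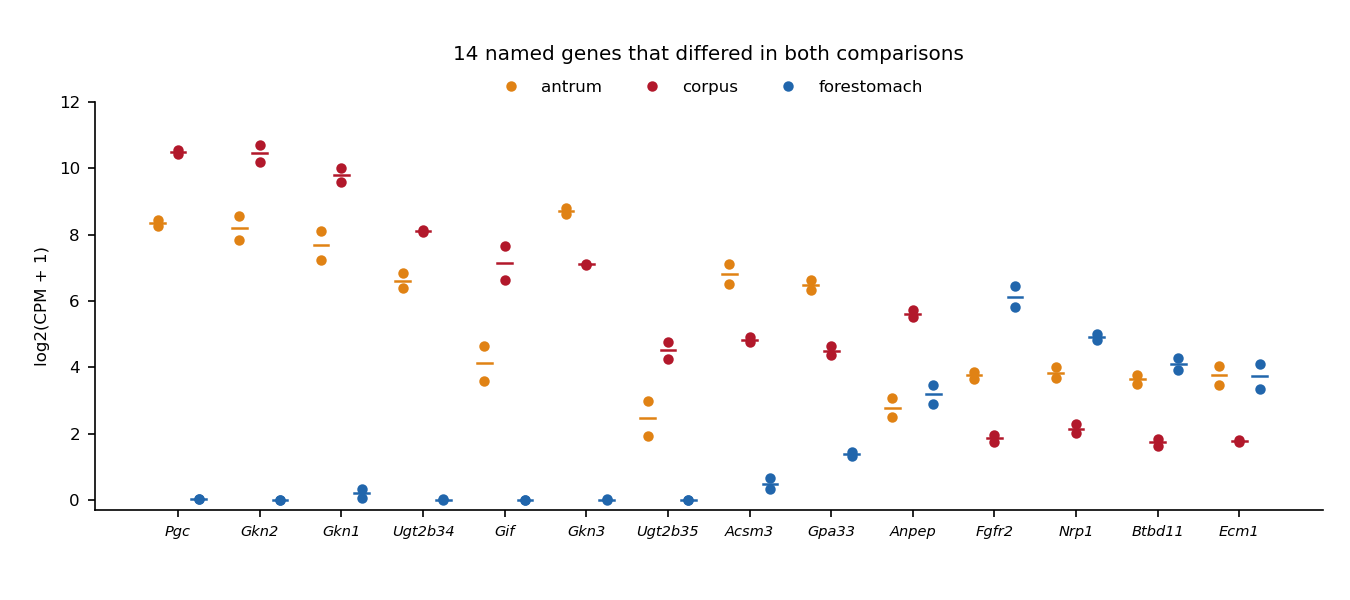
Level as log2(CPM + 1) (y axis) of 14 genes, at most 10 each way, named from those that differed both between corpus and forestomach and between antrum and corpus, with 1 point per library and a bar at the group mean, for antrum (orange), corpus (red) and forestomach (blue). Pgc, Gkn2, Gkn1, Gif and Anpep were lower and Gkn3, Acsm3, Gpa33 and Fgfr2 higher in antrum than in corpus.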

How the data were processed

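RNA was sequenced from 2 corpus, 2 forestomach and 2 antrum libraries. The authors deposited CPM, counts scaled by library size, per gene with 2 decimals in 1 table of 15450 rows. STAR, HTSeq, DESeq2, edgeR and the build mm9 are named per the submitters' processing notes, without versions or roles. The gene annotation, the strand setting and the treatment of reads that fit several genes have no statement in the sources used here. After 19 rows with symbols turned into dates were dropped (at most 0.206% of listed CPM), 15431 genes were used.

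From the CPM that the authors deposited, log2(CPM + 1) values were computed here. Steps between low values gave the reads per library, with 100% of values under 200 CPM at whole reads within 0.0051 CPM. Listed genes held 14.0 and 15.8 M reads in corpus and 18.2 and 15.9 M in forestomach. With 2 decimals, CPM values did not meet the criterion for recovering whole reads over nearly all genes, so no count test was run. The level of 3 reads covers counting error only. limma 3.58.1 in R 4.3.3 fitted 3 group means to all 6 libraries (lmFit, contrasts and eBayes with a trend, 3 residual degrees of freedom plus 6.10 from the prior). Tests were two-sided and adjusted by Benjamini-Hochberg over 11891 genes. The fit was also run on simulated data with noise independent between libraries. That simulation held no trend with transcript length and no shared deviations, so it cannot show how the fit deals with them. Tables and plots used Python 3.11.15, numpy 2.4.6, pandas 2.3.3 and matplotlib 3.10.9.

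Genes were named by rules. The first took the 15 largest differences each way among genes that passed, with groups that did not overlap and the higher of them averaging 10 CPM or more, leaving out unnamed models, small RNA, mitochondrial and sex-linked marker genes. The second took the 10 largest each way, at most, that also passed between antrum and corpus. The third took up to 8 genes whose 95% interval lay within 0.5 of 0. Members of 44 lists (876 symbols, older and newer names of the same gene included, of which 791 were in the table and 606 were tested) were named as examples. The members and lists were chosen with earlier results of these data known. Promoter sequences came from RefSeq for GRCm38.p6, not the build of the files, and no coordinates of the files were used. Alternatives were other pseudocounts (0.5 and 0.1), filters (none and 5 CPM), scalings, a fit to the 4 libraries, no trend, a block by column number and leaving out each library.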

Additional observations from a re-analysis of the deposited data

Results flagged for a closer look

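Among the genes taken by the first and second naming rules, the difference from forestomach was not the same for antrum and corpus cultures at 14. This was tested by the contrast of antrum minus corpus within the limma fit of 6 libraries, with the same forestomach libraries on both sides. Genes named only as list examples were not counted here. The 14 are those the naming rule took from the 90 genes that passed between antrum and corpus. Among genes that were higher in corpus than in forestomach, the antrum minus corpus log2 difference was -2.14 for Pgc, -2.25 for Gkn2, -2.13 for Gkn1, -1.50 for the glucuronosyltransferase Ugt2b34 and -2.06 for its relative Ugt2b35. It was -3.04 for Gif and -2.83 for Anpep. It was 1.60 for Gkn3, 1.97 for Acsm3, which encodes an acyl-CoA synthetase of medium-chain fatty acids, and 1.97 for Gpa33.

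Among genes that were lower in corpus than in forestomach, it was 1.91 for Fgfr2, 1.69 for Nrp1, 1.89 for Btbd11 and 1.97 for Ecm1. The number of the 14 that still passed was 12 with a pseudocount of 0.5 and 5 with the block by column number. It was 2 without corpus 1, 0 without corpus 2, 0 without antrum 1 and 3 without antrum 2. Leaving out either forestomach library left 3. Anpep passed under 12 of the 14 alternatives, Pgc under 10 and Ugt2b35 under 2. The cause of the antrum minus corpus differences was not tested.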

How the results depend on the processing

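The count of genes that passed between corpus and forestomach was 5178 and lay between 4106 and 5908 under the 9 alternatives that left out no replicate library, of which 1 used the 4 corpus and forestomach libraries alone. Leaving out 1 library gave 3031 to 5816 genes, 1422 to 2886 of them higher and 1554 to 4038 lower in corpus. The lowest total came without corpus 2, when 3020 of the 3031 genes were among the 5178. With totals over listed genes made equal 3143 genes were higher, against 2032. For antrum minus corpus the count of 90 was 54 with no filter, 57 with those totals, 48 without the trend and 33 with the replicate block, and 19 to 33 without 1 library. The cause was not tested for any of these. Of the 479 listed or named genes that passed, none reversed under a rescaling. The number that no longer passed was 0 with either other pseudocount, 8 to 16 with no filter, the 4 libraries alone, a rescaling or the block, and 3 without the trend. It was 64 without corpus 1, 75 without corpus 2, 22 without forestomach 1, 21 without forestomach 2 and 14 without either antrum library. The labels do not say whether column numbers pair corpus with forestomach. Deviations of same-numbered libraries correlated at -0.060 across genes (0.614 for corpus with antrum, -0.106 for forestomach with antrum). These values cannot decide it, because library differences moved with transcript length in opposite directions in forestomach (rho -0.548) and corpus (0.331). The replicate block gave 5711 genes. The edgeR fit on recovered reads was not run, because CPM with 2 decimals did not meet the criterion for whole reads. A library left alone in its group was assumed to vary like the others. A depth of 36.9 M reads or more limits values under 0.063 to 0.081 CPM.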

Other observations

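The log2 level of forestomach 2 relative to forestomach 1 fell from each class of transcript length to the next longer one. Lengths were the longest GENCODE M21 transcript per symbol, matched for 10704 of 11891 tested genes (90.0%), and 6306 genes at 5 CPM or more in all 6 libraries were used. The median of forestomach 2 minus forestomach 1 on the log2 scale was 0.13, -0.01, -0.21, -0.36, -0.58, -0.76 and -1.01 in 7 classes from up to 1000 bases to over 8000 bases. For corpus 2 minus corpus 1 the median was -0.31 in the shortest class and 0.00 in the longest, and for antrum 2 minus antrum 1 it was -0.34 and -0.01. Spearman's rho with length, across genes that are not independent, was -0.548 for forestomach, 0.331 for corpus and 0.244 for antrum.

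The same classes carried a trend in the corpus minus forestomach difference itself, whose median was -0.69 in the shortest and 0.22 in the longest class. Without forestomach 1 these medians were -0.78 and 0.74, and without forestomach 2 they were -0.61 and -0.34. Long genes of the lists show the spread. Cenpf had 27.2 and 29.6 CPM in corpus and 86.7 and 22.6 CPM in forestomach, and Notch1 had 19.5 and 13.9 CPM in corpus and 361 and 147 CPM in forestomach. What set the forestomach libraries apart by length was not tested.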
